A study of Mus musculus with 6 samples.

Results

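Zinc finger protein genes were examined in tumorspheres of 2 mouse ovarian cancer lines. The members were all protein coding rows of the deposited gene table whose symbol begins with Zfp and a digit, Zkscan, Zscan or Zbtb, or is Zik1 or Rex2, and they numbered 144 of the 7320 listed genes. They carry 143 symbols, because Zfp319 is listed under a pair of gene identifiers. GENCODE release M21 holds 467 protein coding genes that match the same name rule, so 30.6% of them were listed. The table lists only genes that the authors had already called different between the lines on these same 6 libraries, and the remaining genes of the family were not analysed here.

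ID8 is a line of C57Bl6 mouse ovarian surface epithelial cells, and KMF, labelled ID8-IP in the sample descriptions, was recovered from ID8 cells grown in the peritoneal cavity of mice. Both lines were grown for 5 days as tumorspheres, floating cell clusters in serum-free medium, and the labels name no gene deletion and no drug for either group. Each line had 3 libraries of poly-A RNA, from passages 23, 24 and 35 for ID8 replicates 1 to 3 and from passages 14, 17 and 22 for KMF replicates 1 to 3. KMF is a single derived line, every ID8 library has a higher passage number than every KMF library, and line and passage cannot be told apart. The p-values measure the spread between these 6 cultures.

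A C2H2 zinc finger is a small protein fold held by a zinc ion between paired cysteines and histidines, and arrays of such fingers read DNA sequence. Many carry a second domain that decides what they do once bound. The KRAB box recruits the Trim28 corepressor with the H3K9 methyltransferase Setdb1 and heterochromatin protein 1, and the KRAB zinc fingers are best known for silencing transposons and for keeping imprints. The BTB domain of the Zbtb proteins forms dimers and recruits the Ncor and Sin3 corepressor complexes, and the SCAN domain pairs such proteins with each other. KRAB zinc finger genes lie in clusters of neighbouring copies, with chromosome 7 holding a large share in the mouse.

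The 6 libraries held between 23108407 and 33212313 fragments on genes, and the members together took 0.313% to 0.357% of them. Markers of ovarian surface epithelium were listed for 6 of 10 genes, and 4 of the 5 called were lower in KMF. Msln rose from 34.3 ± 4.70 to 91.6 ± 11.6 FPKM (SD, n = 3) and Wt1 stayed abundant at 108 ± 12.1 and 77.3 ± 13.2 FPKM, while Upk3b, Cdh1 and Krt7 fell by 3.88, 3.55 and 2.55 on the log2 scale and Muc16, not fitted, averaged 0.79 and 0.135 FPKM. Of 10 leukocyte markers 1 was listed, Cd74, at a mean of 1.24 FPKM in ID8 and 0.309 FPKM in KMF. Of 7 endothelial markers 3 were listed, of which Tek, at 3476 to 5224 counts in KMF and 2 in each ID8 library, was the one above 17 counts in any library, and all 4 listed fibroblast markers of 6 were lower in KMF. FPKM counts the fragments of a gene scaled to its length and to the library's total, and is the scale on which levels of different genes are compared here. Whether the marker differences have a part in any result below was not tested.

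Promoters of 5 members are shown first, because these genes mark the ends of the range of change. Zfp709 and Zfp2 had almost no fragments in KMF, Zfp423 and Zfp367 were among the largest rises, and Zscan4c belongs to a family of embryonic genes described further on. Each is 300 bases of RefSeq on GRCm38.p6, from 250 bases before the transcription start to 50 after it, 5′ to 3′ on the gene's strand, with every CG pair in capitals, the dinucleotide at which DNA is methylated in mammals. They lie at chr8:71881818-71882117 (plus strand), chr11:50916127-50916426 (minus strand), chr8:87959546-87959845 (minus strand), chr13:64153150-64153449 (minus strand) and chr7:11005495-11005794 (plus strand).
Zfp709: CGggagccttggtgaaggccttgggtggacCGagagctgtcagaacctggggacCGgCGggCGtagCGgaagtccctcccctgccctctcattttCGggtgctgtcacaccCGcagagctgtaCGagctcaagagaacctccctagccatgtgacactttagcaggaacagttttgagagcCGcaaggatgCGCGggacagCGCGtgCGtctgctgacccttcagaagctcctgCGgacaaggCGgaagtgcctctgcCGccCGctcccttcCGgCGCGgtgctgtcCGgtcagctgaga
Zfp2: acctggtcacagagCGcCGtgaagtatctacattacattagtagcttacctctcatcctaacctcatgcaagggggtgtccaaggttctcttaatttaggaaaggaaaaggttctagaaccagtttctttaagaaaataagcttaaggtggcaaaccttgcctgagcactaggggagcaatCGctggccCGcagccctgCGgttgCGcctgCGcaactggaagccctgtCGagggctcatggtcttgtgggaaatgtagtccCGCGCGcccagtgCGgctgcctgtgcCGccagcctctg
Zfp423: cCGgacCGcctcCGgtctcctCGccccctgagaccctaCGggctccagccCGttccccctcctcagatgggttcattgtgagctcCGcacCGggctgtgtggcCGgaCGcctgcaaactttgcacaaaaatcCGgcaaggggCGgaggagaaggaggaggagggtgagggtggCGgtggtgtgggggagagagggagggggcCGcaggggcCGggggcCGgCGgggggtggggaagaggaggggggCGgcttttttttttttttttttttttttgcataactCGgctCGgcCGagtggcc
Zfp367: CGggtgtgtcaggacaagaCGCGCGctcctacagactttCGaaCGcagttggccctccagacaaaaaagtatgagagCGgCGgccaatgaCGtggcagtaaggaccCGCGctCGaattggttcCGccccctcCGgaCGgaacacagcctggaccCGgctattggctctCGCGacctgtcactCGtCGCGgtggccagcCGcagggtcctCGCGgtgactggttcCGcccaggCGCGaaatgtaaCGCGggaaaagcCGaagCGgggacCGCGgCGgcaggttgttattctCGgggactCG
Zscan4c: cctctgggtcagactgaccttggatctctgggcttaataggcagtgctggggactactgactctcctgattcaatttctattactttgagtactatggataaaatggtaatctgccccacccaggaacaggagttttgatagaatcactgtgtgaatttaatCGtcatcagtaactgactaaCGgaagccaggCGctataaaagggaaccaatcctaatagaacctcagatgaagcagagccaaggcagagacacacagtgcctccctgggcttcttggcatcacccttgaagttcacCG

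These promoters hold 23, 13, 21, 36 and 4 CG pairs in that order. A RefSeq promoter was found for 124 of the 144 members, and their median was 17 CG pairs, against 21 over the promoters of 5359 listed genes and 7 over all 32851 promoters of the table. The pair of Zfp319 identifiers share the same window, which is counted for each of them, here and among the members called lower. At least 1 CG pair was present in every member promoter and in 94.6% of all promoters, and 4 or fewer were present in 5.6% and 38.0%. Members called higher in KMF had a median of 21 CG pairs (23 promoters), members called lower 18 (87 promoters), the members at or under 3 counts in KMF 16 (9 promoters) and KRAB members 13 (54 promoters). The palindrome CACGTG, which reads the same on both strands and contains a CG pair, was in 4 member promoters (3.2%), in 9.8% of listed gene promoters and in 7.2% of all. These are descriptions of the windows, and no methylation or binding was measured.

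Most of the listed zinc finger genes were lower in KMF. By the mean FPKM of the lines, 111 of 144 members were lower and 33 higher, whereas the 7320 listed genes split into 3755 lower and 3565 higher. In the edgeR fit of counts, 139 members passed the filter on low counts and 125 had an adjusted p under 0.05 and are termed called (89.9%, with 92.9% over all fitted genes), a share fixed largely by the table's own selection. All 139 had an unadjusted p under 0.05, which that selection also largely fixed. With adjustment over the fitted genes alone, 6956 of all 6967 fitted genes were called. Of the called members, 98 fell (70.5% of those fitted, with 47.5% over all fitted genes) and 27 rose (19.4%, with 45.4%). The median log2 fold change, KMF minus ID8, was -0.53 over the fitted members, -0.24 over all fitted genes and 0.23 over the other listed protein coding genes. The table holds genes changed to either side and few near 0, so the median over all genes turned to 0.20 with at least 10 counts required in every library, where that of the members was -0.56. The members' median stayed at -0.53 with genes at 0 counts in KMF placed at their bound.

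The typical change was small. A called fall of at least 2-fold was found for 26 members (18.7%, with 22.5% over all fitted genes), and a called rise of at least 2-fold for 9 (6.5%, with 18%). The share of large falls was thus near that of all fitted genes, and most called falls were under 2-fold. The libraries of the lines did not overlap in CPM, the count scaled to the library's fragments on genes, for 135 of 139 members (97.1%, with 96.6% over all fitted genes). Members were also low in level, with a median of the mean FPKM of 3.91 against 9.08 over all listed genes and 10.1 over the other listed protein coding genes. Leaving out each library in turn kept 73 of the 125 calls in all 6 fits, 56 lower and 17 higher. No member changed sign in any of the 16 alternative fits. Neither count was made over all fitted genes, so neither is a result about the members. With a library left out, 86 (without KMF replicate 3) to 104 (without ID8 replicate 2) members were called. In the same fits 5351 and 5766 of all fitted genes were called, in place of 6470.

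Members were grouped by patterns found in their proteins. A KRAB-like pattern was found in 61 members, a SCAN-like pattern without it in 14, 15 were Zbtb genes, and the remaining 54 were grouped as other. These 54 include a Zfp319 identifier for which no protein sequence was available. A pattern can miss a domain, and how often it did was not measured. Zkscan1, Zkscan5, Zkscan6 and Zkscan14 showed the SCAN-like pattern alone and are counted there, while Zkscan16 showed both. The classes are therefore classes of found patterns. Of the 57 fitted KRAB members 44 fell and 8 rose, with a median log2 fold change of -0.62. Over all fitted genes 47.5% fell and 45.4% rose, which is the base for each class and finger count here. All 9 called SCAN members fell, and their median was -0.42 over 14. The Zbtb genes split nearly evenly, as all fitted genes did, 8 lower and 7 higher of 15, with a median of -0.36, whereas the other members had 37 lower and 12 higher and a median of -0.53. By finger number, members with 10 or more finger patterns had 48 lower and 10 higher, those with 5 to 9 had 30 and 6, and those under 5 had 19 and 11. KRAB members were also the lowest in level, at a median of 2.22 FPKM against 7.0 for the Zbtb genes. The difference between classes was not tested.

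**Figure D1:**
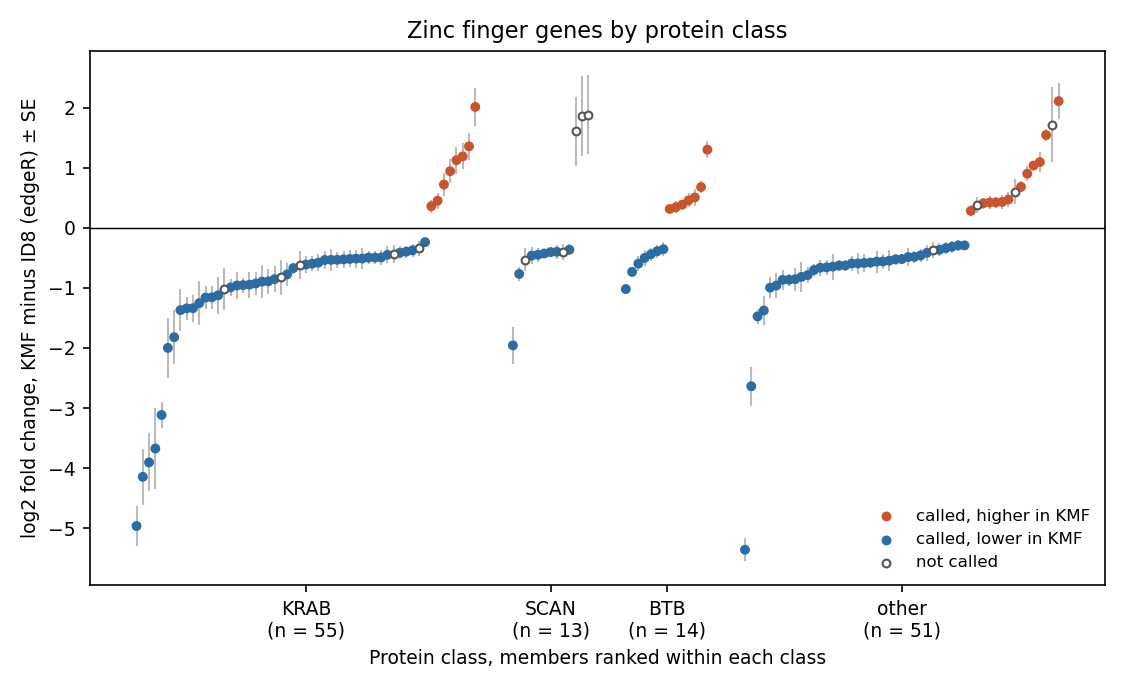
Log2 fold change (KMF minus ID8, edgeR, bars ± SE) of the fitted zinc finger genes outside the set at or under 3 counts in KMF, ranked within 4 protein classes. Filled points are called and open points are not, and the KRAB, SCAN and other classes lie mostly below 0 while the Zbtb genes fall on both sides.

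A set of 11 members was at or under 3 counts in every KMF library while above 3 in every ID8 library, which is 7.6% of the 144, with 4.45% over all listed genes. The opposite pattern was found for 0 members and for 112 of all 7320 listed genes. The members of this set are Zfp709, Zfp2, Zfp287, Zfp583, Zkscan16, Zfp422, Zfp804a, Zbtb8b, Zfp354b, Zfp354a and Zfp872, and 6 of them are KRAB members. At these counts, lower RNA per cell and fewer expressing cells cannot be told apart. The set was chosen for this pattern, and its fitted members passed the filter on low counts through their ID8 libraries alone. Their edgeR adjusted p, given below, therefore restates that choice and is no separate support for a fall.

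Zfp709, a KRAB gene with 18 finger patterns, had 112, 82 and 120 counts in ID8 and 1, 0 and 0 in KMF. The ID8 libraries were far above those of KMF, though low for a member at a mean of 0.996 ± 0.165 FPKM (SD, n = 3). The pooled ratio, which rests on the 1 KMF count, was 316-fold (95% exact interval 56.4 to 12500, counting error only), with an edgeR adjusted p of 5.65e-05. Zfp2, with 13 finger patterns and no KRAB-like pattern, had 99, 69 and 28 counts in ID8 and 0 in each KMF library. ID8 replicate 3 was the low one of its line, and the level in KMF was at least 21-fold lower against a floor of 3 counts per library (edgeR adjusted p = 0.00165). Such a floor allows up to 0.038 FPKM in KMF, where ID8 averaged 0.794 ± 0.388 FPKM (SD, n = 3).

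Zfp287, a SCAN member, had 30, 22 and 15 counts in ID8 and 0 in each KMF library, at least 7.24-fold lower (edgeR adjusted p = 0.00167). Zfp804a, best known as a gene linked to schizophrenia risk, had 18, 13 and 15 counts in ID8 and 0 in KMF, at least 4.99-fold lower (edgeR adjusted p = 0.00184). Zbtb8b had 20, 13 and 13 counts in ID8 and 0, 2 and 1 in KMF, a pooled ratio of 15.5 (4.97 to 77.7) and an edgeR adjusted p of 0.00317, and this ratio rests on 3 KMF counts, 2 of them in replicate 2. Its fitted log2 fold change, which at such counts depends on the prior count, was -3.74 with all libraries and -4.67 without KMF replicate 2. These genes were low in ID8 as well, with means between 0.125 and 0.247 FPKM. Zkscan16 had 13, 10 and 31 counts in ID8 and 3, 2 and 0 in KMF. It fell by 3.29 ± 0.86 (SE) on the log2 scale, and the edgeR adjusted p was 0.0176, which was 0.0538 without KMF replicate 2, 0.0553 without KMF replicate 3 and 0.0606 with limma on log2(FPKM + 1). Its log2 fold change was -2.56 without KMF replicate 3, -2.63 without ID8 replicate 3 and -4.03 without KMF replicate 1. As stated for the set, the adjusted p of each gene here follows a choice made on the same counts.

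The last 5 of the set did not pass the filter on low counts and were not tested. Zfp583 had 29, 9 and 19 counts in ID8, Zfp422 20, 19 and 7, Zfp354b 16, 14 and 4, and Zfp354a 11, 15 and 7, each with 0 in every KMF library, and the bounds were at least 6.04-fold, 5.00-fold, 3.68-fold and 3.65-fold lower. Zfp872 had 8, 6 and 7 counts in ID8 and 0, 0 and 1 in KMF, a pooled ratio of 21.2 (3.40 to 875). This ratio rests on the 1 KMF count, in replicate 3. The GENCODE transcripts of Zfp354b share 17.7% of their 100-base stretches with another gene and those of Zfp354a 14.9%, so a fragment could be split between these copies.

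**Figure D2:**
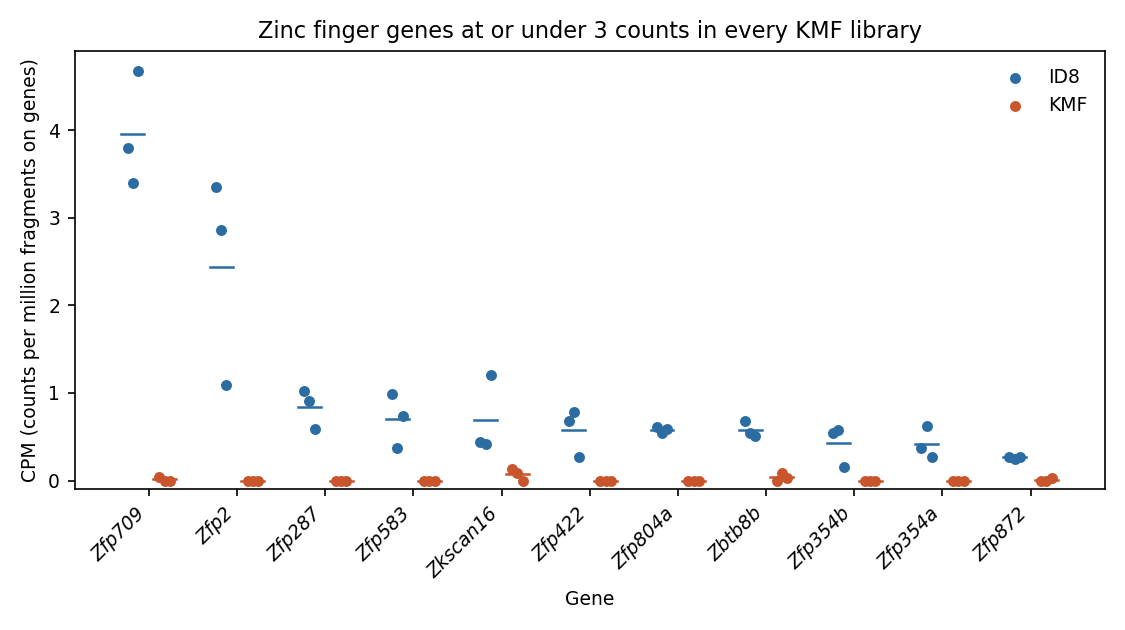
CPM of the 11 zinc finger genes at or under 3 counts in every KMF library, with 3 points and a bar at the mean for each line. Zfp709 and Zfp2 stand above 1 CPM in every ID8 library, and all KMF points lie at or near 0.

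Beyond this set, Zfp618, Zfp334, Zfp354c, Zfp667 and Zfp612 had the largest falls. Zfp618 had 597, 485 and 611 counts in ID8 and 14, 11 and 15 in KMF, and its log2 fold change was -5.36 with an SE of 0.19, the smallest of this group (edgeR adjusted p = 4.8e-06). Zfp334, a KRAB gene with 14 finger patterns, had 342, 334 and 191 counts in ID8 and 7, 9 and 11 in KMF, and fell by 4.96 ± 0.34 on the log2 scale (edgeR adjusted p = 3.76e-05). Both were therefore far above the floor in ID8 and still detected in each KMF library. Zfp334 passed the filter on low counts through its ID8 libraries alone, so its adjusted p is a description and no separate support for a fall.

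Zfp354c had 152, 87 and 56 counts in ID8 and 4, 3 and 9 in KMF (log2 fold change -4.15 ± 0.47, edgeR adjusted p = 0.000354). Zfp667 had 43, 28 and 56 in ID8 and 1, 3 and 4 in KMF (-3.91 ± 0.48, edgeR adjusted p = 0.000538). Zfp612 had 70, 50 and 48 in ID8 and 5, 7 and 0 in KMF (-3.67 ± 0.68, edgeR adjusted p = 0.00371), with -4.39 without KMF replicate 2 and -2.95 without KMF replicate 3. All 3 are KRAB members, and their lines did not overlap, as the rule for naming them required. They too passed the filter on low counts through their ID8 libraries alone, so their adjusted p is no separate support for a fall. Among the other members, and chosen after their values were seen, Zfp677 fell by 3.12 ± 0.22, Zfp503 by 2.64 ± 0.33 and Zfp467 by 1.48 ± 0.13 on the log2 scale (edgeR adjusted p = 4.45e-05, 0.000543 and 0.000102), of which Zfp467 went from 20.5 ± 2.21 to 7.15 ± 1.08 FPKM (SD, n = 3).

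The largest rises were smaller in size than the largest falls. Zfp423, a many-fingered partner of Smad proteins in BMP signalling that is also used in fat and brain development, had 142, 155 and 84 counts in ID8 and 608, 477 and 480 in KMF. KMF was above ID8 in every library, as the rule for naming the largest rises required. The log2 fold change was 2.11 ± 0.30 (SE, edgeR adjusted p = 0.00112). Zfp473, which takes part in the 3′ end processing of histone mRNA, was near the limit of detection with 13, 8 and 14 counts in ID8 and 37, 38 and 66 in KMF (2.01 ± 0.31, edgeR adjusted p = 0.00158). Zfp367, a transcription factor with 2 finger patterns, was expressed at 6.41, 6.998 and 6.04 FPKM in ID8 and 19.5, 18.6 and 17.0 FPKM in KMF (1.54 ± 0.10, edgeR adjusted p = 3.58e-05), and 10.9% of its exonic bases are also those of an annotated transcript on the opposite strand.

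Zbtb38, Zfp9, Zfp382, Zfp385a and Zfp101 also rose. Zfp9 had 1.36, 1.45 and 1.79 FPKM in ID8 and 2.44, 3.74 and 3.999 in KMF, and Zfp382, a KRAB repressor, had 1.13, 1.74 and 1.74 in ID8 and 3.22, 3.19 and 3.35 in KMF. Their log2 fold changes were 1.19 ± 0.22 and 1.12 ± 0.23 (SE, edgeR adjusted p = 0.00352 and 0.00558). Zfp385a, an RNA-binding p53 target that turns p53 toward cell cycle arrest, had 11.0, 11.5 and 7.76 FPKM in ID8 and 23.8, 19.5 and 19.5 in KMF (1.09 ± 0.17, edgeR adjusted p = 0.00164), and was the 1 listed gene of 11 in the list of RNA-binding and splicing zinc fingers. Zfp101 had 4.38, 3.72 and 3.79 FPKM in ID8 and 5.21, 7.65 and 9.33 in KMF (0.94 ± 0.20, edgeR adjusted p = 0.00769). In each of these genes the lowest KMF library was above the highest ID8 library, as the rule for naming them required.

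**Figure D3:**
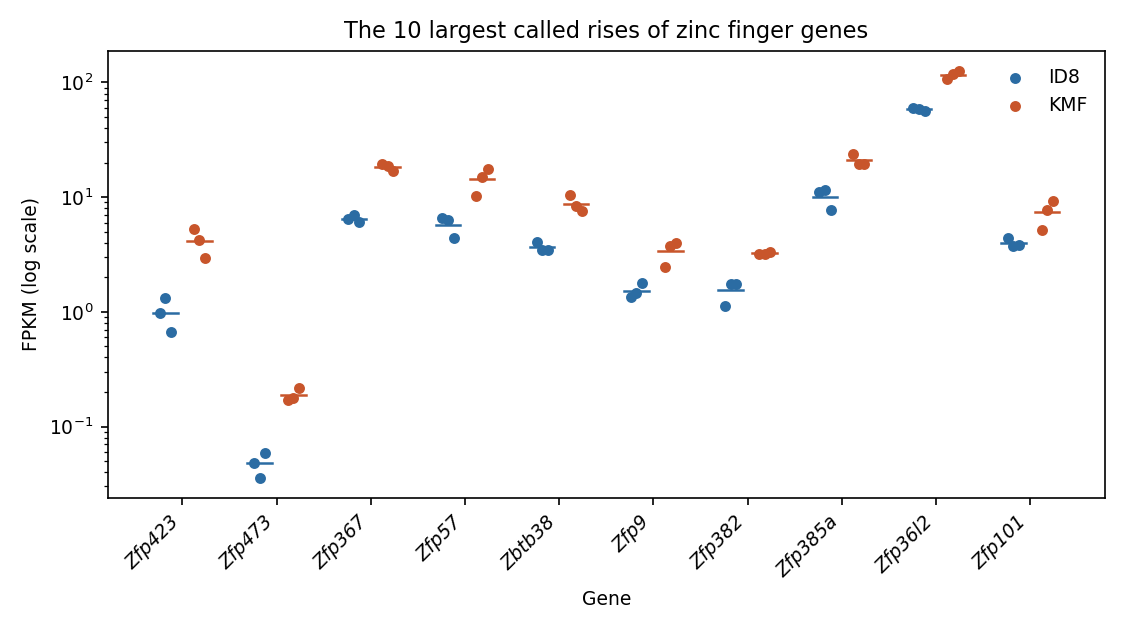
FPKM (log axis) of the 10 zinc finger genes with the largest called rises, with 3 points and a bar at the mean for each line. Levels run from under 0.1 FPKM for Zfp473 in ID8 to over 100 FPKM for Zfp36l2 in KMF. The lines do not overlap for any of the 10, which was a condition of their choice.

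The 5 most abundant members included proteins that act on RNA. Zfp36l2, a CCCH-type protein that binds AU-rich elements and brings on the decay of mRNA, had 60.3, 58.9 and 56.3 FPKM in ID8 and 106, 118 and 126 FPKM in KMF, and its rise was 1.03 ± 0.08 on the log2 scale (SE, edgeR adjusted p = 6.63e-05). Its paralog Zfp36l1 had 38.7, 34.4 and 38.2 FPKM in ID8 and 29.97, 30.95 and 27.4 in KMF, a fall of 0.29 ± 0.08 on the log2 scale (edgeR adjusted p = 0.0229), so this pair of decay factors moved in opposite directions. The Zfp36l1 call was lost without ID8 replicate 1 (0.0884), ID8 replicate 3 (0.0566) or KMF replicate 3 (0.106), and 55.9% of its exonic bases are also those of a noncoding RNA on the opposite strand. These were the 2 listed genes of 4 in the list of CCCH mRNA decay factors.

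Zfp703, a corepressor of the NET family that is amplified in human luminal breast cancer, had 50.3, 41.6 and 48.3 FPKM in ID8 and 76.0, 75.0 and 67.2 in KMF (log2 fold change 0.68 ± 0.09, edgeR adjusted p = 0.00086), and was the 1 listed gene of 9 in the list of cancer-linked zinc fingers. Zfp503, named above among the falls, is the other member of that family. Zfp622, known for its part in maturation of the large ribosomal subunit, averaged 43.9 ± 1.55 FPKM over the ID8 libraries and 34.9 ± 3.23 over those of KMF (SD, n = 3, edgeR log2 fold change -0.29 ± 0.09, adjusted p = 0.0324). The adjusted p of Zfp622 was 0.0686, 0.107 and 0.0507 without ID8 replicates 1, 2 and 3, and 0.154 and 0.146 without KMF replicates 2 and 3. Zbtb7c was at 28.2 ± 1.21 FPKM in ID8 and 35.7 ± 0.907 in KMF (0.38 ± 0.07, edgeR adjusted p = 0.0036).

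Of 3 genes in the list of factors that keep imprints, 2 were listed and called higher in KMF, one of them with a weak call, in a table where 92.9% of all fitted genes were called and 45.4% called higher. Zfp57, a KRAB protein that binds methylated imprint control regions and recruits Trim28 there, had 6.56, 6.33 and 4.37 FPKM in ID8 and 10.3, 15.1 and 17.6 in KMF. The lines did not overlap, and the log2 fold change was 1.35 ± 0.23 (SE, edgeR adjusted p = 0.00248). Zfp445, which acts beside Zfp57 at imprints, had 14.3, 12.6 and 12.7 FPKM in ID8 and 14.2, 17.9 and 17.4 in KMF, so that KMF replicate 1 lay within the ID8 range. Its log2 fold change was 0.36 ± 0.11 (edgeR adjusted p = 0.0347), and the adjusted p was 0.146 with upper quartile scaling, 0.057 with RLE size factors, 0.0624 with library totals alone, 0.074 and 0.0696 with limma on log2(FPKM + 1) and log2(FPKM + 0.1), 0.0707 with a minimum of 10 counts per library, 0.0959 and 0.0897 without ID8 replicates 2 and 3, and 0.0947 and 0.089 without KMF replicates 2 and 3. The remaining gene of that list, Zfp568, was not among the listed genes.

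Of the KRAB proteins known to silence transposons, 1 of 10 in the list was in the table. Zfp809, which brings Trim28 to retroviral DNA at the primer binding site, had 16.5, 16.01 and 18.3 FPKM in ID8 and 7.62, 9.41 and 8.48 in KMF. It fell by 0.96 ± 0.13 on the log2 scale (SE, edgeR adjusted p = 0.000705), with no overlap between the lines.

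All 4 genes of the list of Zbtb proteins linked to methylated DNA were in the table, and they did not move together. Calls for all 4 are no result about the list, since 92.9% of all fitted genes were called, 45.4% higher and 47.5% lower. Zbtb38 rose, from 4.10, 3.48 and 3.42 FPKM in ID8 to 10.4, 8.33 and 7.58 in KMF (log2 fold change 1.30 ± 0.14, edgeR adjusted p = 0.000294). Zbtb4 fell, from 12.8, 12.6 and 14.0 FPKM to 6.65, 6.33 and 5.89 (-1.02 ± 0.08, edgeR adjusted p = 7.36e-05). Zbtb24, the gene mutated in a form of the ICF immunodeficiency and centromere instability syndrome, fell by 0.60 ± 0.12 (edgeR adjusted p = 0.00563), and Zbtb33, known as Kaiso, by 0.39 ± 0.11 (edgeR adjusted p = 0.0204). The Zbtb33 call was lost without ID8 replicate 3 (0.0569), KMF replicate 1 (0.0918) or KMF replicate 2 (0.106). Of the other Zbtb lists, 1 of 8 genes of the blood lineage list was in the table, Zbtb7b, at 21.1 ± 3.07 FPKM in ID8 and 29.1 ± 4.66 in KMF with overlapping libraries (0.50 ± 0.14, edgeR adjusted p = 0.0235), and none of 5 genes of the telomere list nor of the 3 ubiquitin ligase genes. Zbtb7b lost its call without ID8 replicates 1 and 2 (0.0897 and 0.066), without KMF replicates 2 and 3 (0.0725 and 0.078) and with upper quartile scaling (0.0676).

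The list of pluripotency and stem cell zinc fingers had 6 of 14 genes in the table, of which 3 rose (Zfp423, Zfp57 and Zfp143) and 1 fell (Zfp281), while Zscan4c and Zscan4d were not called. Over all fitted genes 92.9% were called, 45.4% higher and 47.5% lower, so 4 of 6 is no result about the list. Zfp143, which binds promoters and loop anchors, had 4.604, 4.41 and 4.51 FPKM in ID8 and 5.31, 6.02 and 6.40 in KMF (log2 fold change 0.43 ± 0.12, edgeR adjusted p = 0.0209). Zfp335, a nuclear receptor coactivator partner in the same promoter list, was close to it at 5.18, 4.68 and 4.62 FPKM in ID8 and 5.57, 6.30 and 6.97 in KMF (0.42 ± 0.11, edgeR adjusted p = 0.0214), with 28.3% of its exonic bases shared with genes on the opposite strand. Zfp281 was at 10.1, 9.57 and 11.9 FPKM in ID8 and 7.88, 8.62 and 7.72 in KMF (-0.34 ± 0.10, edgeR adjusted p = 0.03). These 3 calls were weak. That of Zfp143 was lost without ID8 replicate 1 (0.0679) or 2 (0.0586) or KMF replicate 2 (0.0545) or 3 (0.0626), and with upper quartile scaling (0.0745). That of Zfp335 was lost without ID8 replicate 2 (0.0592) or 3 (0.0577) or KMF replicate 3 (0.0622), with upper quartile scaling (0.0778) and with limma on log2(FPKM + 1) or log2(FPKM + 0.1) (0.0566 and 0.0571). Zfp281 had an adjusted p from 0.056 to 0.138 without any 1 library other than ID8 replicate 2.

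Zscan4c, Zscan4d and Zscan4e, together with Zfp352, were low in count and higher in KMF, without passing the test. They are known from the 2-cell mouse embryo, where Zscan4 is switched on as the embryo's genome becomes active, and Zscan4 also turns on now and then in single embryonic stem cells, where it acts in telomere lengthening. Zscan4c had 7, 24 and 4 counts in ID8 and 27, 29 and 82 in KMF, and Zscan4d had 5, 24 and 10 against 24, 41 and 57. Zscan4e and Zfp352, named after their values were seen, had 3, 14 and 3 against 12, 26 and 37, and 10, 21 and 4 against 18, 50 and 47. In all 4, ID8 replicate 2 was the highest ID8 library and reached the lowest KMF library or came close to it. The log2 fold changes were 1.88 ± 0.66, 1.60 ± 0.58, 1.86 ± 0.67 and 1.71 ± 0.62 (SE), and none was called (edgeR adjusted p = 0.058, 0.0639, 0.0649 and 0.0664). Zscan4c and Zscan4d passed with limma on log2(FPKM + 1) (0.0437 and 0.033) and log2(FPKM + 0.1) (0.0344 and 0.038) and with adjustment over the fitted genes alone (0.0233 and 0.0256), and not with the other scalings or DESeq2.

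Leaving out single libraries moved these values widely. Without ID8 replicate 2 the edgeR adjusted p was 0.00631 for Zscan4c and 0.0106 for Zscan4d, with log2 fold changes of 3.06 and 2.48, whereas without any other library it was 0.069 to 0.223 for Zscan4c and 0.0672 to 0.176 for Zscan4d. The Zscan4 copies are nearly the same in sequence, and 72.8% of the 100-base stretches of Zscan4c, 29.6% of those of Zscan4d and 84.1% of those of Zscan4e occur in another gene. Their split between copies is therefore uncertain. Summed over the 3 copies the counts were 15, 62 and 17 in ID8 and 63, 96 and 176 in KMF. The Zscan4c promoter printed above has 4 CG pairs, near the low end of the member promoters, whose lowest was 1.

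**Figure D4:**
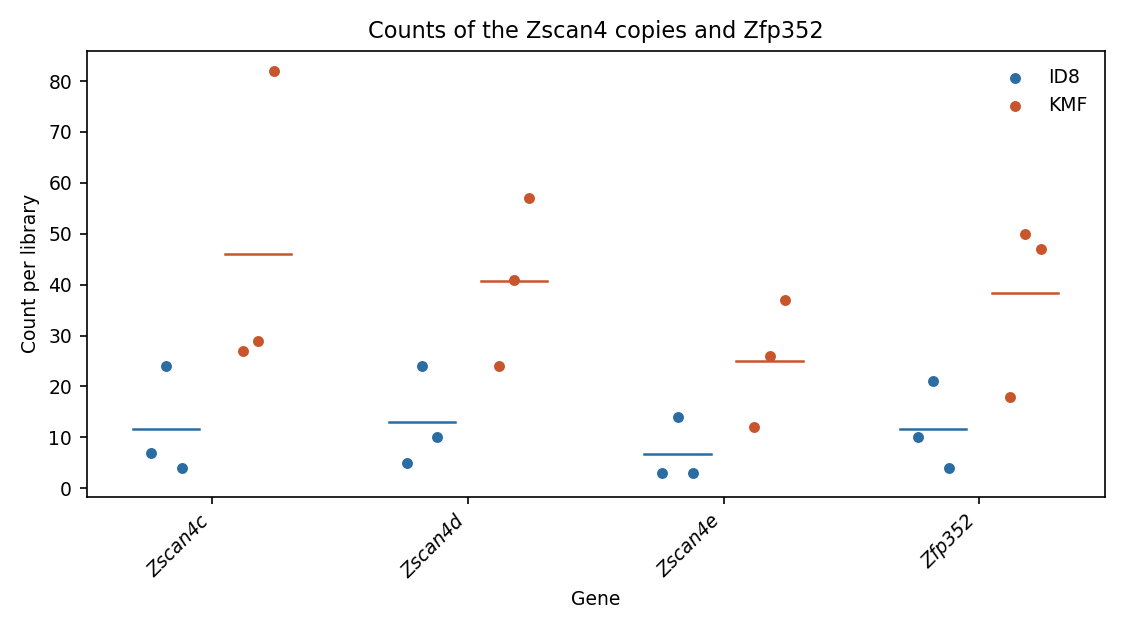
Counts of Zscan4c, Zscan4d, Zscan4e and Zfp352 in each library, with 3 points and a bar at the mean for each line. A single ID8 library, replicate 2, stands near the lowest KMF library in all 4 genes.

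Members were also read by their neighbours. With members whose starts were less than 1 Mb from the next joined into runs, 24 runs held 74 members, and in 16 runs every member had the same direction by the means of the lines, in a family where 111 of 144 members were lower. Among these 16 is the pair of Zfp319 identifiers, which carry the same symbol. No test was made of the runs. The longest run was chr7:24112314-25227507 (positions as the authors' table gives them, mm10) and held 7 members. Zfp112, Zfp109, Zfp108, Zfp93, Zfp94 and Zfp428 fell, by 0.96 ± 0.22, 2.0 ± 0.49, 1.13 ± 0.31, 0.58 ± 0.14, 0.89 ± 0.21 and 0.67 ± 0.14 on the log2 scale (SE, edgeR adjusted p from 0.00608 to 0.0225), and Zfp526 at its end rose by 0.47 ± 0.13 (edgeR adjusted p = 0.0215). Zfp109 had 65, 59 and 82 counts in ID8 and 7, 28 and 14 in KMF, and Zfp112 had 181, 122 and 182 against 58, 78 and 109, with no overlap in CPM.

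Of these calls, 5 were lost when a library was left out. Zfp109 had an adjusted p of 0.0599 without KMF replicate 3 (log2 fold change -1.73) and a larger fold without KMF replicate 2 (-2.77, 0.00292), Zfp93 0.0517 without KMF replicate 2 (-0.54) and Zfp94 0.0512 without ID8 replicate 1 (-0.85). The call of Zfp108 was lost without ID8 replicate 3 (0.066) or KMF replicates 1, 2 or 3 (0.063, 0.0972 and 0.0788), with log2 fold changes from -1.16 to -0.92. The call of Zfp526 was lost without ID8 replicate 1 (0.0888) or 2 (0.0659) or KMF replicate 2 (0.0687) or 3 (0.0628), with log2 fold changes from 0.43 to 0.46, and with upper quartile scaling (0.0679). Those of Zfp112 and Zfp428 held in every alternative run.

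A second run, chr11:50811086-51072799, held Zfp354c, Zfp2, Zfp354b and Zfp354a, all of them described above. Here 3 of the 4 members were at 0 counts in every KMF library, and Zfp354c had at most 9 counts there. Over all of chromosome 11, 10 members were listed, all lower by the means, and 4 of them were at or under 3 counts in KMF (40.0%), against 29 of 628 other listed genes of the chromosome (4.62%). A further run, at chr7:6131489-7183562, held Zfp787, Zfp444, Zfp667, Zfp583, Zfp28 and Zfp418, with 5 called lower and Zfp583 at 0 in KMF. As a base, 70.5% of all fitted members and 47.5% of all fitted genes were called lower. At chr8:71882068-71934629, Zfp709 lay beside Zfp882 and Zfp617, which fell by 1.16 ± 0.19 and 0.40 ± 0.10 on the log2 scale (edgeR adjusted p = 0.00201 and 0.0155), and both were still counted in every KMF library.

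The members were set beside the other listed genes of their chromosome. On chromosome 7, with 37 members, 8 of 29 called members were higher in KMF (27.6%), whereas 63.9% of the 476 other called genes of that chromosome were higher. On chromosome 5 none of 8 called members was higher, against 64.9% of the others, and on chromosome 4 none of 8 against 49.8%. Chromosome 17 had 4 of 11 higher (36.4%) against 49.4%, and chromosome 8 had 2 of 14 (14.3%) against 34.6%. On all 10 chromosomes with 5 or more called members the share of called members that were higher was below that of the other genes, although several of these shares rest on 5 to 8 genes and no test was made of them. The members on chromosome 11 (0 of 8) stood beside other genes that were also mostly lower, with 27.6% higher.

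**Figure D5:**
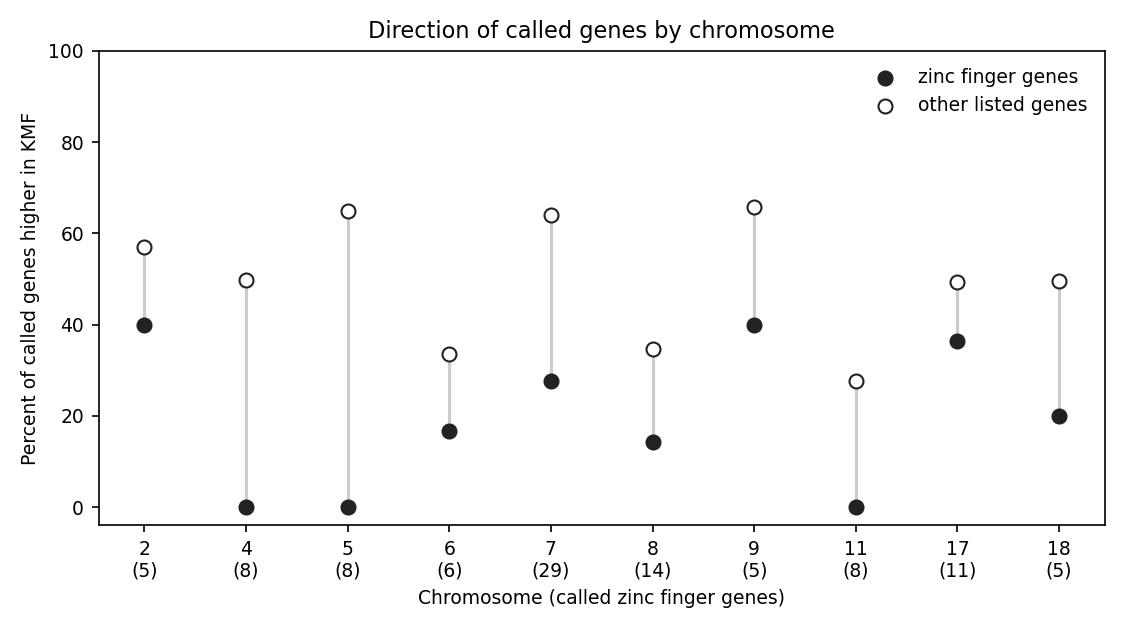
Percent of called genes that were higher in KMF, for zinc finger genes (filled) and all other listed genes (open) of each chromosome with 5 or more called zinc finger genes, whose number is given in brackets. The filled point lies below the open one on all 10 chromosomes, with the smallest gap on chromosome 17 (36.4% against 49.4%) and the largest on chromosome 5 (0% against 64.9%).

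The proteins through which KRAB zinc fingers act were read from a list of 35 genes that are not zinc finger members. Of these, 18 were listed and 18 called, 8 higher and 10 lower in KMF, a split near that of all fitted genes, of which 92.9% were called, 45.4% higher and 47.5% lower. Uhrf1, which guides Dnmt1 to half-methylated DNA, went from 13.01 ± 3.57 to 55.5 ± 11.1 FPKM (SD, n = 3, edgeR log2 fold change 2.13 ± 0.23, adjusted p = 0.000299), and Dnmt1 itself from 14.3 ± 2.81 to 31.7 ± 2.70 (1.19 ± 0.15, edgeR adjusted p = 0.000552). The H3K9 methyltransferases Suv39h2, Suv39h1 and Setdb1 rose by log2 fold changes of 1.93 ± 0.17, 0.81 ± 0.10 and 0.34 ± 0.09 (edgeR adjusted p = 0.000106, 0.000666 and 0.0146). Among those that fell were the nucleosome remodelers Chd3 (-1.003 ± 0.09, edgeR adjusted p = 0.000132) and Chd4 (-0.52 ± 0.12, 0.0115) and the histone chaperone Daxx (-0.68 ± 0.09, 0.000688). Mphosph8 (-0.496 ± 0.11, edgeR adjusted p = 0.00883), Fam208a (-0.435 ± 0.104, 0.0124) and Morc2a (-0.261 ± 0.086, 0.046) fell as well. So did Smarcad1 (-0.29 ± 0.085, edgeR adjusted p = 0.0294) and Atrx (-0.283 ± 0.093, 0.0451). With upper quartile scaling 5 of the list were higher, and 6 without ID8 replicate 1 and 5 without KMF replicate 2 were lower.

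Of 21 genes of the BTB corepressor list, 10 were listed and 9 called, 3 higher and 6 lower, beside 92.9% called over all fitted genes. Sin3b, a scaffold of the Sin3 histone deacetylase complex, fell from 59.6 ± 9.93 to 15.1 ± 1.41 FPKM (SD, n = 3, edgeR log2 fold change -1.94 ± 0.13, adjusted p = 3.27e-05), Bcorl1 by 1.09 ± 0.13 (edgeR adjusted p = 0.000511) and Ncor1, the scaffold of the Ncor complex, by 0.55 ± 0.08 (0.00113). Sap30, Tbl1xr1 and Hdac7 were higher. The number called was 5 without KMF replicate 2 and 5 without KMF replicate 3.

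Some values carry a known uncertainty of counting. Whether the authors counted by strand was not given in the sources used here. More than 10% of the exonic bases lie on another annotated gene for 11 of 143 members, and over 50% for Zfp784 (94.8%) and Zfp36l1. The pair of Zfp319 identifiers lie side by side on the same strand of chromosome 8 without overlap in the table, and both were called lower. Of 139 members, 68 had their lowest ID8 value in CPM in replicate 2 and 72 their highest in replicate 3. In KMF, 79 had their lowest value in replicate 1 and 55 their highest in replicate 2. The part of this in the results was not tested.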

How the data were processed

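Poly-A RNA of 3 ID8 and 3 KMF tumorsphere cultures was sequenced as paired-end reads. The authors' methods name TopHat2 as the mapper, while the submitters' processing notes name STAR 2.5 and mm10, so the mapper is uncertain, and the annotation and counter are not given in the sources used here. The deposited counts are raw fragments for each gene and library. FPKM in the same table was computed by the authors from the fragments of a gene, the deposited gene length and the library's fragments on genes. The deposited signal columns are the authors' mean of counts after size factors, and the authors' deposited log2 fold change and p-value columns are those of DESeq2 for KMF over ID8. None of the authors' comparison columns was printed. The authors' deposited p-value columns served to learn that the largest adjusted p was 0.0499 and that 17359 genes had been tested.

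Library totals, 23108407 to 33212313 fragments, were recovered from count, FPKM and length. The count model was edgeR 4.0.16, run in R 4.3.3 with its quasi-likelihood test (two-sided, TMM scaling, filterByExpr), across the 6967 listed genes that passed the filter, and p-values were adjusted by Benjamini-Hochberg over 17359 genes, with unlisted genes ranked below. The threshold was 0.05. The edgeR step, tested on simulated data for KMF against ID8 (7320 genes, 200 changed by 1 log2 unit), called 96% of the changed genes and 1 unchanged gene. The simulation gave every gene the same spread between libraries and changed no gene of low count. Far fewer genes were changed in it than were called here. Its rates therefore do not carry over to genes of low count or wider spread. Within a line chi-square per degree of freedom was 19.3 to 36.7, so no library was a duplicate. Intervals and floors cover counting error only, since there were no molecular identifiers.

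KRAB, SCAN and finger patterns were searched in proteins translated from GENCODE M21 coding sequence, in place of the RefSeq proteins first planned, because no RefSeq protein table was used here. Zbtb genes were taken by name. Promoters are RefSeq sequences of GRCm38.p6.

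The members and the gene lists were chosen with earlier results of these data known. Named genes are the 10 largest called rises and falls with lines that do not overlap, members on the gene lists, the 5 with the highest mean FPKM, the longest run, and members at or under 3 counts in every library of a line. Alternatives were other scalings, DESeq2 1.42.0, limma 3.58.1 on log2(FPKM + 1) and log2(FPKM + 0.1), other filters, a replicate block, adjustment over the fitted genes alone, and each library left out in turn. Tables used pandas 2.3.3 and numpy 2.4.6 under Python 3.11.15, exact intervals scipy 1.17.1, and plots matplotlib 3.10.9.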

Additional observations from a re-analysis of the deposited data

How the results depend on the processing

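Across the 16 alternatives, 86 to 139 members and 5189 to 6956 of all fitted genes were called, and the median log2 fold change of the members was below 0 in each. The number called higher in KMF, 27 in the reported fit, was 17 with upper quartile scaling (13.8% of called members, 41.5% of all called genes), which lowered the log2 fold changes of all genes by a median of 0.11 and moved the members' median from -0.53 to -0.64. With limma on log2(FPKM + 1) the median was -0.42 and 10 members in place of 35 were called with at least a 2-fold change, a scale on which differences of low genes are compressed. Of the KRAB corepressor list, 5 in place of 8 were called higher with upper quartile scaling, and 6 in place of 10 lower with the replicate block. Without 1 library, 86 to 104 members were called, 19 to 27 higher, 67 to 82 lower and 34 to 43 with at least a 2-fold change, and the median was -0.55 to -0.47. On the corepressor lists, 12 to 16 KRAB genes were then called, 7 to 8 higher and 5 to 8 lower, and 5 to 8 BTB genes. The replicate numbers did not pair the cultures, since deviations of libraries with the same number correlated at 0.07, -0.06 and 0.11. With the replicate number as a block, 100 members were called, 24 higher and 76 lower, 97 of them shared with the reported fit, and of the named members Zscan4d gained a call (adjusted p = 0.0329) while Zfp281, Zfp335, Zfp108, Zfp143, Zfp445, Zfp36l1 and Zfp622 lost theirs (adjusted p from 0.0551 to 0.0854). Of the 41 named members called, 27 were called in every alternative that fitted them, and the same was not counted over all fitted genes. With the SCAN class taken by name, 6 members fell in place of 9. Low counts limit the members near the floor, where 3 counts were 0.0903 to 0.13 CPM.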

Other observations

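Zinc finger proteins outside the name rule were also counted. Of 77 other listed protein coding genes whose description says zinc finger, 69 were called by edgeR, 26 higher and 43 lower (over all fitted genes 92.9% were called, 45.4% higher and 47.5% lower), and their median change on the log2 scale was -0.43. Chosen from these after its values were seen, Zfhx4 was counted 171, 122 and 109 times in the ID8 libraries, and each KMF library had 0. The noncoding rows that match the name rule, Zfp133-ps and Zfp419, were also lower in KMF, with log2 fold changes of -2.39 ± 0.39 and -2.72 ± 0.46 (SE, edgeR adjusted p = 0.00196 and 0.00244). Zfp133-ps passed the filter on low counts through its ID8 libraries alone, so its adjusted p is no separate support for a fall.

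Another 4 listed genes known from the 2-cell embryo were picked by hand after the Zscan4 values had been seen, from a table in which 92.9% of all fitted genes were called, so their calls are no support for a common change. Usp17lc had 4, 12 and 9 counts in ID8 and 29, 34 and 53 in KMF, Gm8300 had 7, 9 and 4 against 14, 22 and 25, and AF067061 had 5, 6 and 6 against 15, 10 and 32. Their log2 fold changes were 2.18 ± 0.44, 1.61 ± 0.44 and 1.70 ± 0.45 (SE, edgeR adjusted p = 0.00583, 0.0206 and 0.0199). Tcstv1 had 4, 19 and 6 against 21, 24 and 46 and was not called (edgeR adjusted p = 0.0713), and ID8 replicate 2 was again its highest ID8 library. These genes belong to families of near-identical copies, so their counts are uncertain.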
